A study of Mus musculus with 6 samples.

Results

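Cholesterol synthesis, uptake and efflux were followed through 29 genes in the livers of mice given a vertical sleeve gastrectomy (VSG, surgery that leaves a narrow tube of stomach) or a sham operation. The genes were taken from a list of names of the pathway. They were found in a count table of 55385 genes through GENCODE M21 gene symbols, and all 29 were among the 14454 genes with enough counts to be tested. The list held 18 synthesis enzymes (7 of the mevalonate steps and 11 of the squalene and sterol steps), 4 genes that control the sterol-sensing transcription factor SREBP, 3 genes of sterol transfer and esterification, and 4 genes of uptake and efflux. Liver RNA came from male mice, 6 to 8 weeks old at the start, that ate a high-fat diet (HFD) for 10 weeks before the operation and for 12 weeks after it. The study's methods give wild-type C57BL/6 mice. There were 3 sham-operated and 3 VSG-operated livers, 1 library each, and both groups shared the diet and its duration. Whole liver was sequenced, so fewer cells of a type and less RNA per cell cannot be told apart.

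Cholesterol is built from acetyl-CoA, first to mevalonate and isoprenoid units, then to squalene, which is closed into lanosterol and trimmed to cholesterol. When sterols in the endoplasmic reticulum run low, the escort protein SCAP carries SREBP to the Golgi, where it is cut free to raise transcription of the synthesis enzymes, while INSIG proteins hold SCAP back when sterols are plentiful. The liver also takes cholesterol up from lipoproteins, exports it to nascent HDL through ABCA1, sends it into bile through the ABCG5 and ABCG8 pair, and stores it as ester.

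Between 22804397 and 24191778 reads were counted per library. Values are given below as CPM (counts scaled to library size with TMM factors) and, where genes are compared with each other, as FPKM. FPKM is CPM per kilobase of the summed length of all annotated exons of a gene. All values are listed in the order sham replicates 1, 2 and 3, then VSG replicates 4, 5 and 6. The liver marker Alb was abundant in all libraries, from 35829 to 81833 CPM, and 0 of the 7 hepatocyte markers passed an adjusted p under 0.05 by edgeR's quasi-likelihood test. DESeq2 called 2 of them (Ttr and Ass1), and 2 had an unadjusted p under 0.05 in edgeR. Of the 7 log2 fold changes 6 were negative, with a median of -0.30. Their summed level was nevertheless uneven, with 93624 CPM in sham replicate 2 against 42148 to 66757 CPM in the other 5 libraries. Alb alone made up most of this sum.

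The comparison of VSG with sham livers found 1 of the 29 genes higher (Abca1) and 1 lower (Insig2) at an adjusted p under 0.05 by edgeR's quasi-likelihood test. Over all genes tested, 14.7% were called, 6.79% as higher and 7.87% as lower, so the share among the 29 genes was not above the background. None of the 18 synthesis enzymes was called. At an unadjusted p under 0.05 there was 1 of the 18, Acat2, and DESeq2 called 0 of them. Their median log2 fold change was 0.18, beside 0.03 over all genes tested, with 11 positive and 7 negative values. That median was 0.81 without sham replicate 2, and it was negative with sham replicate 1 (-0.15), sham replicate 3 (-0.14) or VSG replicate 6 (-0.33) left out. The 3 libraries of a group did not overlap those of the other in 4 of the 29 genes (Insig2, Soat2, Abca1 and Abcg5), whereas this held for 39.7% of all genes tested. DESeq2 called the same 4 genes, against 22.8% of all genes. Log2 fold changes of the synthesis enzymes also carried wide errors, with a median standard error (SE) of 0.434, beside 0.215 for the other 11 genes and 0.186 over all genes tested.

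**Figure D1:**
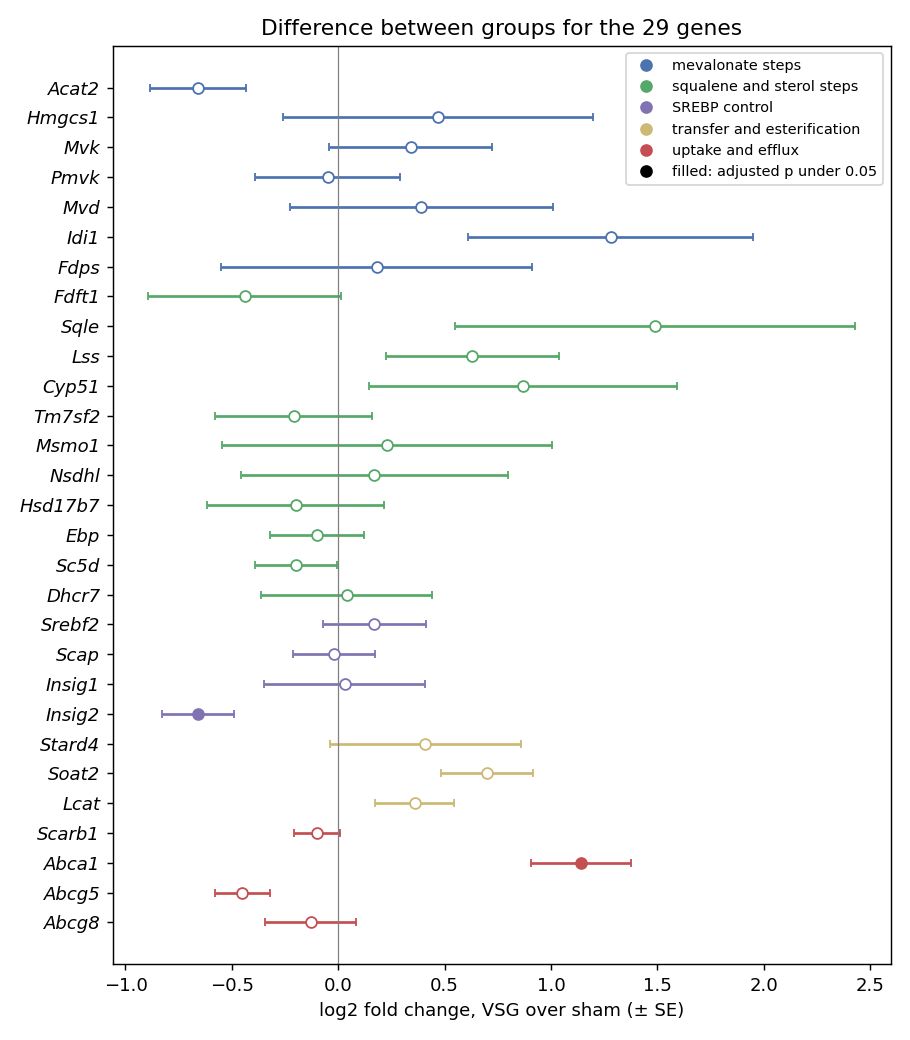
Log2 fold change of VSG over sham for the 29 genes, by class, with bars of 1 SE on each side and filled points for an adjusted p under 0.05. Only Insig2 (-0.66) and Abca1 (1.14) are filled, and the widest bar belongs to Sqle (SE 0.94).

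The mevalonate steps opened with Acat2, the cytosolic thiolase that joins the first acetyl units. Acat2 stood at 24.4, 42.3 and 35.2 CPM in sham and at 19.4, 19.1 and 26.1 CPM in VSG livers. VSG replicate 6 lay above sham replicate 1, so the groups overlapped, although the other VSG libraries were below all sham libraries. The log2 fold change was -0.66 (SE 0.225, adjusted p = 0.0938). It passed the threshold in 2 of the 12 alternatives run, without sham replicate 1 (adjusted p = 0.0474) and with total counts in place of TMM factors (adjusted p = 0.0268). In the others the adjusted p reached 0.234. Hmgcs1, the synthase that makes HMG-CoA, had 74.7, 244 and 78.4 CPM in sham and 114, 66.3 and 369 CPM in VSG livers. One library of each group was far above the rest, sham replicate 2 and VSG replicate 6, and the 5.56-fold range over the libraries of VSG livers spanned that of the sham livers. The means were 132 ± 96.8 and 183 ± 163 CPM (SD, n = 3), with an adjusted p of 0.676.

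The remaining enzymes of these steps were less abundant. Mvk and Pmvk, the kinases that phosphorylate mevalonate in turn, had 4.95, 11.5 and 5.47 CPM and 9.31, 19.1 and 9.5 CPM in sham livers. In VSG livers Mvk had 7.78, 7.1 and 12.7 CPM and Pmvk had 9.82, 10.3 and 16.3 CPM. Both genes were high in sham replicate 2 and VSG replicate 6 and the groups overlapped (adjusted p = 0.56 and 0.924). Mvd, the decarboxylase that yields isopentenyl diphosphate, had 1.99, 7.58 and 2.28 CPM in sham and 5.84, 2.35 and 7.25 CPM in VSG livers. Fdps, which condenses these units to farnesyl diphosphate, had 2.4, 12.3 and 2.58 CPM in sham and 5.84, 3.08 and 10.6 CPM in VSG livers. Again sham replicate 2 and VSG replicate 6 were the high libraries of both enzymes (adjusted p = 0.683 and 0.881). Idi1, the isomerase between them, rested on few reads, 17, 33 and 11 in sham and 30, 23 and 80 in VSG livers. With a log2 fold change of 1.28 (SE 0.669) it did not pass the test (adjusted p = 0.224).

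The squalene and sterol steps showed the same unevenness. Sqle, the squalene epoxidase that is a rate-limiting step of the pathway, had 6.65, 66 and 10.4 CPM in sham and 57.6, 32.2 and 143 CPM in VSG livers. The highest library held 21.5 times the lowest, the widest range among the 29 genes, and sham replicate 2 lay above 2 of the 3 VSG libraries. The means were 27.7 ± 33.2 and 77.6 ± 58.1 CPM, and the log2 fold change of 1.49 (SE 0.94) had an adjusted p of 0.3. That value was 3.18 without sham replicate 2 (adjusted p = 0.0613) and 0.70 without VSG replicate 6 (adjusted p = 0.668). Cyp51, the demethylase that acts on lanosterol, had 28.4, 118 and 27.7 CPM in sham and 70.8, 51.8 and 196 CPM in VSG livers. All 3 VSG libraries were above 2 of the sham libraries, and sham replicate 2 was above 2 of the VSG libraries (log2 fold change 0.87, SE 0.724, adjusted p = 0.424). Msmo1, the sterol methyl oxidase that follows, had 42.8, 248 and 46 CPM in sham and 91.4, 74.2 and 231 CPM in VSG livers. Here the highest library was a sham library, and the log2 fold change was 0.23 (SE 0.775, adjusted p = 0.852).

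Fdft1, the squalene synthase, had 36, 93.9 and 44 CPM in sham and 25.9, 37.4 and 65.3 CPM in VSG livers. Lss, the cyclase that forms lanosterol, had 16.8, 40.9 and 19.9 CPM in sham and 31.2, 30.1 and 59 CPM in VSG livers. The groups overlapped in both genes, with log2 fold changes of -0.44 and 0.63 and adjusted p-values of 0.524 and 0.308. Nsdhl, a dehydrogenase of the demethylation complex, ran from 17.6 to 48.8 CPM in sham and from 14.6 to 61.7 CPM in VSG livers. Hsd17b7, the reductase of that complex, ran from 41.9 to 102 CPM in sham and from 37 to 77.5 CPM in VSG livers. Tm7sf2, a sterol reductase, ran from 24.7 to 52.9 CPM and from 18.7 to 36.1 CPM. All 3 genes had small log2 fold changes with wide errors (0.17, -0.20 and -0.21, with SEs of 0.627, 0.415 and 0.371).

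Among the late enzymes Sc5d and Ebp had narrow ranges over the 6 libraries (1.59-fold and 1.68-fold), and Dhcr7 did not (2.56-fold). Sc5d, a sterol desaturase, was the most abundant synthesis enzyme per length, with a mean of 83.1 FPKM over the 6 libraries, and Ebp, a sterol isomerase, followed with 47.6 FPKM. Sc5d had 381, 536 and 381 CPM in sham and 337, 354 and 437 CPM in VSG livers, and Ebp had 94.7, 153 and 94.2 CPM in sham and 90.8, 119 and 109 CPM in VSG livers. In both genes sham replicate 2 was the highest of all 6 libraries. Their log2 fold changes were -0.20 (SE 0.193, adjusted p = 0.484) and -0.10 (SE 0.219, adjusted p = 0.764). Dhcr7, which catalyses a final reduction to cholesterol, had 32.5, 64.4 and 33.2 CPM in sham and 40.5, 26.1 and 66.9 CPM after VSG, which gave a log2 fold change of 0.04 (SE 0.401, adjusted p = 0.955).

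The 18 synthesis enzymes thus varied together between livers of the same group. Sham replicate 2 was the highest sham library in 18 of 18 enzymes, while it was the highest for 40.8% of all genes tested. VSG replicate 6 was the highest VSG library in 16 of 18 enzymes, while it was the highest for 25% of all genes tested. These were the 2 highest of the 6 libraries in 15 of 18 enzymes (83.3%), against 4.32% of all genes. The exceptions were Acat2, Tm7sf2 and Ebp. The 2 libraries were picked out from the values of these enzymes, so the shares over all genes are no test of the pattern. Sham replicate 2 exceeded the mean of the other 2 sham libraries by a median of 2.36-fold over the enzymes, from 1.41-fold in Sc5d to 7.74-fold in Sqle. VSG replicate 6 exceeded the mean of the other VSG libraries by a median of 1.97-fold, from 1.04-fold in Ebp to 4.09-fold in Hmgcs1. The ratio of sham replicate 1 to sham replicate 3 had a median of 0.947, from 0.639 in Sqle to 1.5 in Idi1.

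The other genes took part in this to different degrees. In 3 of the 11, Srebf2, Insig1 and Stard4, sham replicate 2 and VSG replicate 6 were likewise the 2 highest of the 6 libraries. Over all 11 the corresponding median folds were 1.31 in sham replicate 2 and 1.06 in VSG replicate 6, beside 1.01 and 0.981 over all genes tested. For the 4 uptake and efflux genes they were 1.04 and 1.05, although Abcg8 stood 1.59-fold higher in sham replicate 2, above the 1.41-fold of Sc5d. The same 2 libraries had the lowest TMM factors, 0.924 and 0.897, against 0.97 to 1.15 in the others, so TMM scaling raised their values relative to plain totals. With total counts the libraries were still the highest of their groups in 18 and 16 enzymes, with median folds of 1.95 and 1.8. The sum of hepatocyte markers was highest in sham replicate 2 (93624 CPM) but not in VSG replicate 6 (63629 CPM, below the 66757 CPM of VSG replicate 5). Alb made up most of these sums (81833 and 56433 CPM in the 2 libraries), and single markers differed. Among sham libraries, replicate 2 was the highest for Alb, Ttr, Cps1, Hnf4a, Tat and Hpd, but not for Ass1. In sham livers Tat had 607, 1791 and 555 CPM, Hpd had 948, 1683 and 962 CPM, and Ass1 had 786, 608 and 563 CPM. High values in sham replicate 2 were thus not particular to the synthesis enzymes. Among VSG libraries, replicate 6 was the highest for Hnf4a and Tat (854 and 1009 CPM). It was the lowest for Cps1 and Ass1 (2230 and 347 CPM) and lay between the others for the rest.

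**Figure D2:**
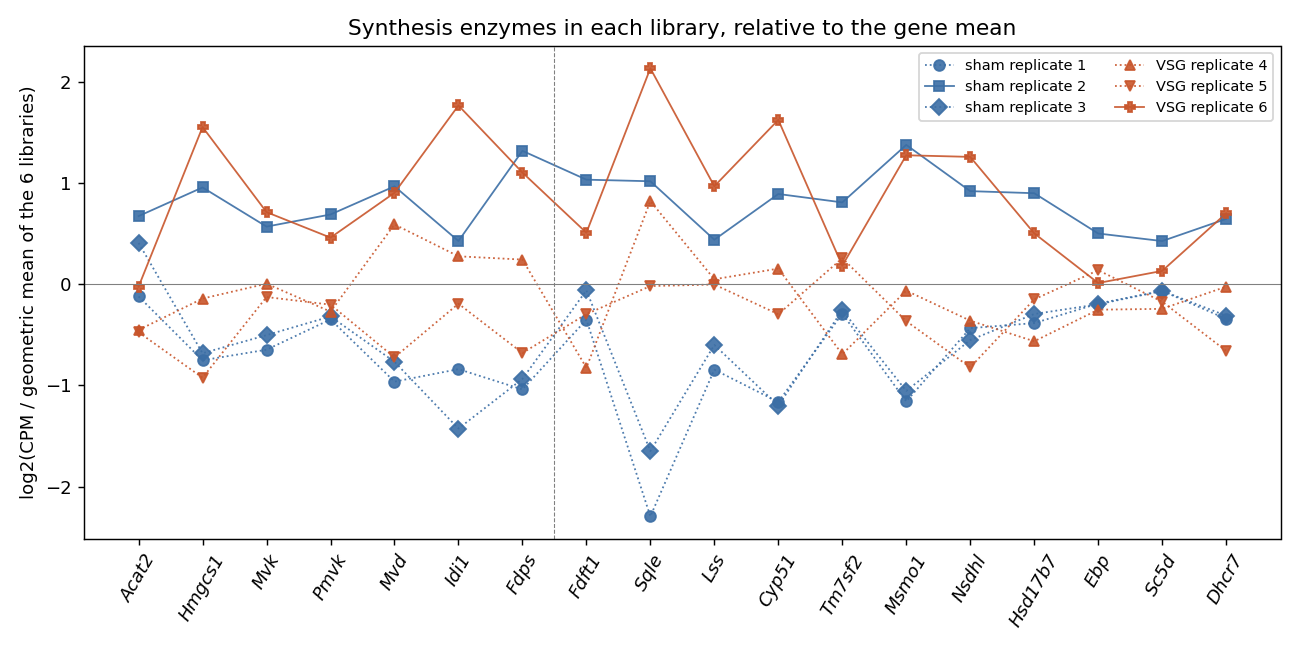
Log2 of CPM over the gene's geometric mean for each of the 18 synthesis enzymes in pathway order, 1 marker per library, with a dashed line between the mevalonate steps and the squalene and sterol steps. Sham replicate 2 and VSG replicate 6 (solid lines) lie above the other libraries of their groups in 18 and 16 enzymes.

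Promoter windows show what sequence these genes share. RefSeq windows (GRCm38.p6, 250 bases before to 50 bases after the annotated start) were at hand for 23 of the 29 genes and 15 of the 18 synthesis enzymes. The CCAAT core bound by NF-Y, a partner of SREBP, was present on either strand in 14 of the 15 synthesis enzymes (93.3%), against 41.1% of 27025 genes with a window. It was also present in 6 of the 8 other genes (75%). The SREBP consensus TCACNCCAC occurred in 1 of the 15 enzymes, Hmgcs1, against 1.44% of all genes. The E-box CACGTG occurred in 3 of the 15 enzymes (20%) and in 3 of the 8 other genes (37.5%), against 8.09% of all genes. Matches are descriptions of the letters and are not binding sites measured here.

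The windows of Hmgcs1, Cyp51, Msmo1 and Idi1 are shown because in these enzymes sham replicate 2 and VSG replicate 6 stood at least 2.79-fold above the mean of the other libraries of their groups. That cut is the value of Msmo1 in VSG replicate 6, so it was taken from these data. Nsdhl (2.66-fold and 3.56-fold) fell just below the cut, and its window, not shown, held 4 CCAAT matches. Sqle also met the cut (7.74-fold and 3.19-fold), but no window was at hand for it. The 4 windows lie on chr13:119690101-119690400 (plus strand), chr5:4104648-4104947 (minus strand), chr8:64733529-64733828 (minus strand) and chr13:8885356-8885655 (plus strand). Each is printed 5′ to 3′ along the gene, and capitals mark CCAAT (or ATTGG on the other strand) and, in Hmgcs1 alone, the SREBP consensus that starts 137 bases before the annotated start.
Hmgcs1: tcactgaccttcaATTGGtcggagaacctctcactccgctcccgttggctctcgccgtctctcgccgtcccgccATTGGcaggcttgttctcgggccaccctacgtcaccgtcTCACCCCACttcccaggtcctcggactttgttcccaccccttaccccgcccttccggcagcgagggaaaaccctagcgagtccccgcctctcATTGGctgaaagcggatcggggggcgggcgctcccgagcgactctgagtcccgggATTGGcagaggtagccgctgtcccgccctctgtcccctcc
Cyp51: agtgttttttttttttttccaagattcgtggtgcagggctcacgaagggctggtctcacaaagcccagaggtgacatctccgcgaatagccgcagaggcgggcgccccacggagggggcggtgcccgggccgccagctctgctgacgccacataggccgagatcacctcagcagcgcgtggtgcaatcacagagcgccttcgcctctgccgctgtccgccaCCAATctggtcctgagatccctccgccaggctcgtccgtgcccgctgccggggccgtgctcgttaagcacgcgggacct
Msmo1: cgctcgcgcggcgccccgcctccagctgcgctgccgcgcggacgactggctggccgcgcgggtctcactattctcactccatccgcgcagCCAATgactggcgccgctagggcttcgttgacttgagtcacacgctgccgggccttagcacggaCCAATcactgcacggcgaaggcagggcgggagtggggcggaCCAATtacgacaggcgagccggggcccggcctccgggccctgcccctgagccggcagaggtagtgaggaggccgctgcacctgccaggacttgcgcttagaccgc
Idi1: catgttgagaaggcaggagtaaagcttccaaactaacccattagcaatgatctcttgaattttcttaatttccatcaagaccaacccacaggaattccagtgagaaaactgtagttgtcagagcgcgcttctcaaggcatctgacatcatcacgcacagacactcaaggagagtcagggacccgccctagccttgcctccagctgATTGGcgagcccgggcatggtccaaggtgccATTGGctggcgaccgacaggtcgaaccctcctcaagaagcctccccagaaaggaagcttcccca
Hmgcs1 held 4 CCAAT matches, Msmo1 held 3, Idi1 held 2 and Cyp51 held 1.

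Among the genes that control SREBP, Insig2 was lower in VSG livers. Insig2 encodes the form of INSIG that does not depend on SREBP for its transcription, and in GRCm38 it lies at chr1:121304353-121332589 on the minus strand. It stood at 257, 238 and 233 CPM in sham and at 181, 120 and 159 CPM in VSG livers. All 3 VSG libraries were below all 3 sham libraries, and the sham libraries were close together. The mean fell from 243 ± 12.8 to 153 ± 31.1 CPM, a ratio of 0.631, with a log2 fold change of -0.66 (SE 0.169, adjusted p = 0.045). The call was close to the threshold. It was lost with limma-voom (adjusted p = 0.0513) and without sham replicate 1 (0.1), sham replicate 2 (0.0983), sham replicate 3 (0.134) or VSG replicate 6 (0.125), while the log2 fold change stayed between -0.81 and -0.53 in the 12 alternatives run.

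The other 3 control genes did not pass the test. Insig1, the sister gene that is itself a target of SREBP, had 61.6, 150 and 61.4 CPM in sham and 74.9, 88.1 and 116 CPM in VSG livers. Its high libraries were those of the synthesis enzymes, and the sham libraries spanned all VSG libraries (log2 fold change 0.03, SE 0.378, adjusted p = 0.959). Per length, Insig2 exceeded Insig1 in every library, with FPKM ratios of 3.72, 1.42 and 3.38 in sham and 2.15, 1.21 and 1.22 in VSG livers. The ratio was 2.84 ± 1.24 in sham and 1.53 ± 0.542 in VSG livers, and the groups overlapped because of sham replicate 2. Srebf2, which encodes SREBP-2, had 40.2, 68.6 and 44.7 CPM in sham and 51, 49.1 and 72.4 CPM in VSG livers (adjusted p = 0.648). Scap had 84.9, 111 and 85.2 CPM in sham and 73.2, 115 and 89 CPM in VSG livers (adjusted p = 0.952). The highest Scap library was VSG replicate 5, not a library with high synthesis enzymes.

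Transfer and esterification genes had positive log2 fold changes, and none passed the test. Soat2, the enzyme that esterifies cholesterol in hepatocytes, had 32.5, 29.2 and 30.6 CPM in sham and 57.2, 59.6 and 33.5 CPM in VSG livers. VSG replicates 4 and 5 were well above all sham libraries, and VSG replicate 6 lay just above sham replicate 1, so the groups did not overlap. This gave a log2 fold change of 0.70 (SE 0.215, adjusted p = 0.0717). It passed in 2 of the 12 alternatives run, with DESeq2 (adjusted p = 0.027) and without VSG replicate 6 (log2 fold change 0.93, adjusted p = 0.0281). In the others the adjusted p reached 0.204. Lcat, the plasma enzyme that esterifies cholesterol on HDL, was the most abundant of the 29 genes per length, with a mean of 264 FPKM. It had 261, 392 and 276 CPM in sham and 370, 426 and 398 CPM in VSG livers, and only sham replicate 2 reached the VSG range (log2 fold change 0.36, SE 0.186, adjusted p = 0.218). Stard4, a carrier of cholesterol between membranes, had 50.9, 123 and 44.5 CPM in sham and 57.6, 114 and 119 CPM after VSG (log2 change 0.41, SE 0.45, adjusted p = 0.547).

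Among uptake and efflux genes, Abca1 was higher in VSG livers. Abca1, the transporter that loads cellular cholesterol onto apolipoprotein A-I, lies at chr4:53030787-53159895 on the minus strand in GRCm38. It stood at 340, 330 and 311 CPM in sham and at 943, 505 and 722 CPM in VSG livers. Every VSG library was above every sham library, and the VSG libraries were spread over a 1.87-fold range against 1.09-fold in sham. The mean rose from 327 ± 14.7 to 723 ± 219 CPM, a ratio of 2.21, with a log2 fold change of 1.14 (SE 0.236, adjusted p = 0.0274). The call was lost without sham replicate 1 (adjusted p = 0.0673), sham replicate 2 (0.0771), sham replicate 3 (0.123) or VSG replicate 6 (0.0931), with log2 fold changes between 0.91 and 1.33 in the 12 alternatives run.

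Macrophages also express Abca1, and macrophage markers moved in the same direction. Of 9 macrophage markers 4 were called higher (Clec4f, Marco, Timd4 and Vsig4) and 0 lower, with a median log2 fold change of 1.07. Over all genes tested, 6.79% were called higher. Adgre1, Csf1r, C1qa, C1qb and Cd68 were not called, with log2 fold changes from 0.13 (Cd68) to 1.07 (Csf1r). The summed level of the 9 markers was 589, 307 and 426 CPM in sham and 1812, 632 and 1197 CPM in VSG livers. The VSG libraries stood in the same order (4, then 6, then 5) as for Abca1. Much of the difference in this sum came from Marco alone, with 26.7, 6.3 and 3.91 CPM in sham and 688, 101 and 366 CPM in VSG livers. Among the sham livers the sum ranged from 307 to 589 CPM while Abca1 stayed between 311 and 340 CPM. Neutrophil granule and surface markers, 9 of 9 called higher, summed to 14.2, 2.56 and 4.44 CPM in sham and to 1803, 146 and 830 CPM in VSG livers. In the sham libraries Mpo, Elane, Prtn3, Camp and Ly6g had at most 15 counts. The part of these cells in the Abca1 difference was not tested.

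The promoter windows of the 2 called genes are shown for comparison with those of the enzymes. The Abca1 window (chr4:53159846-53160145, minus strand) held neither CCAAT nor the SREBP consensus, and its capitals mark an E-box CACGTG. The upstream Insig2 window (chr1:121332540-121332839, minus strand) held 3 CCAAT matches, in capitals, and 2 other RefSeq windows of Insig2 held none of the 3 motifs.
Abca1: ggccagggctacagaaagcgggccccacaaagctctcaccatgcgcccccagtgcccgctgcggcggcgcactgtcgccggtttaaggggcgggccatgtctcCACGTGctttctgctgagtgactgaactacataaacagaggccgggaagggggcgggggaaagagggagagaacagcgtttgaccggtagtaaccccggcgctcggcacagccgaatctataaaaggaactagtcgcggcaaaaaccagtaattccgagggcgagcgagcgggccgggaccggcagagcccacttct
Insig2: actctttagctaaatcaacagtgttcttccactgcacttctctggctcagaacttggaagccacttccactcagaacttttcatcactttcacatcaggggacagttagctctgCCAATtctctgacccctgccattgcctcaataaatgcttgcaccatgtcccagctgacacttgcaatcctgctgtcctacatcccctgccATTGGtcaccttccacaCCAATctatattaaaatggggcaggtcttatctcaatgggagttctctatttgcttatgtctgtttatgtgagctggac
A motif not found means only that its letters are not in these windows.

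The other uptake and efflux genes had lower or like levels in VSG livers. Abcg5, which forms with Abcg8 the exporter of sterols into bile, had 99.9, 108 and 104 CPM in sham and 84.6, 63.2 and 80.7 CPM in VSG livers. The groups did not overlap, and the log2 fold change of -0.45 (SE 0.13) had an adjusted p of 0.0636. It passed in 2 of the 12 alternatives run, with DESeq2 (adjusted p = 0.0168) and with total counts (adjusted p = 0.0309). In the others the adjusted p reached 0.177. Abcg8, which is transcribed from the opposite strand next to Abcg5, had 94.2, 164 and 112 CPM in sham and 123, 99.2 and 114 CPM in VSG livers, and the groups overlapped (log2 fold change -0.13, SE 0.215, adjusted p = 0.689). The FPKM ratio of Abcg8 to Abcg5 was 0.852 ± 0.217 in sham and 1.07 ± 0.0568 in VSG livers, with sham replicate 2 (1.1) inside the VSG range. Scarb1, the receptor for selective uptake from HDL, had the smallest range over the 6 libraries of the 29 genes (1.17-fold), with 229, 226 and 247 CPM in sham and 215, 212 and 228 CPM in VSG livers, a log2 fold change of -0.10 (SE 0.107, adjusted p = 0.534). Per length, Abca1 was 1.22, 1.2 and 1.03 times Scarb1 in sham and 3.59, 1.96 and 2.6 times Scarb1 in VSG livers, and these ranges did not overlap. Because Scarb1 varied little, this ratio largely repeats the Abca1 values.

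**Figure D3:**
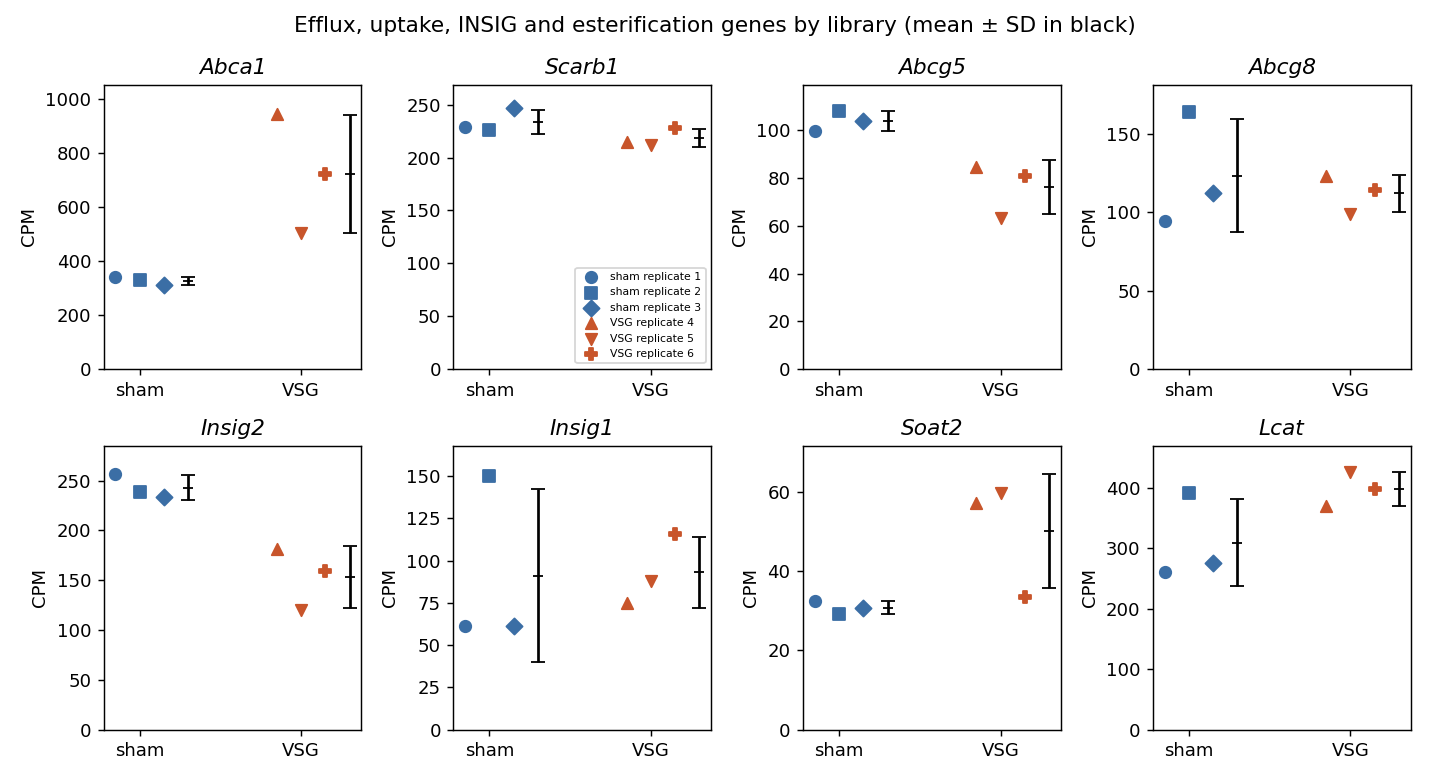
CPM of 8 genes of efflux, uptake, SREBP control and esterification in each library, with the mean and SD of the 3 libraries of a group in black. The VSG libraries of Abca1 (505 to 943 CPM) lie above and those of Insig2 (120 to 181 CPM) below all sham libraries, and Insig1 and Abcg8 have their highest value in sham replicate 2.

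Synthesis was also set against uptake and efflux within each library, as a description without a test. In the uptake and efflux class only Scarb1 stands for uptake, and Abca1, Abcg5 and Abcg8 stand for efflux. The lists do not hold every gene of synthesis or uptake. The summed FPKM of the 18 synthesis enzymes was 205, 435 and 214 in sham and 230, 226 and 434 in VSG livers. The sums of 1 sham and 1 VSG library were thus nearly equal at the top and the other 4 libraries lay close together, with group means of 285 ± 130 and 297 ± 119. The summed FPKM of the 4 uptake and efflux genes was 122, 142 and 127 in sham and 180, 123 and 157 in VSG livers, or 130 ± 10.5 and 154 ± 28.7. The highest library exceeded the lowest 2.12-fold for synthesis and 1.48-fold for uptake and efflux. The ratio of synthesis to uptake and efflux was 1.69, 3.06 and 1.68 in sham and 1.28, 1.83 and 2.77 in VSG livers. Group means of 2.14 ± 0.797 and 1.96 ± 0.755 differed by less than the SD of either group.

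The direction of that small difference depended on the summary. The log2 ratio of VSG minus sham livers was -0.14, with a pooled SD of 0.53, when FPKM were summed. It was 0.44 (pooled SD 0.61) when the gene of each class with the highest FPKM, Sc5d and Abca1, was left out. Abca1 is also the gene called higher in VSG livers, and it led its class only through them. Its mean was 31.6 FPKM in sham and 69.8 FPKM in VSG livers, while Abcg5 and Abcg8 had 38.3 and 32.9 FPKM in sham livers. The value of 0.44 therefore follows in part from the choice of gene and is no separate sign of direction. The value was 0.22 (pooled SD 0.55) with the median gene of each class. Taken gene by gene, 18 of 18 synthesis enzymes were above their own mean over the 6 libraries in sham replicate 2 and 17 in VSG replicate 6, against 0 and 1 in sham replicates 1 and 3 and 7 and 2 in VSG replicates 4 and 5.

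**Figure D4:**
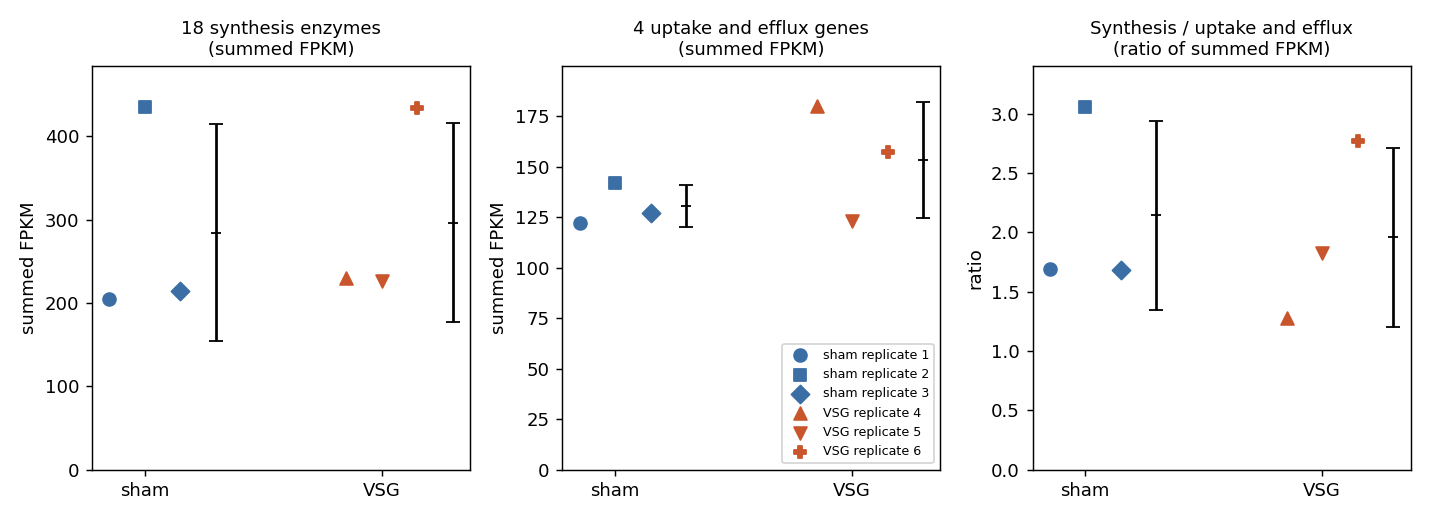
Summed FPKM of the 18 synthesis enzymes (left) and of the 4 uptake and efflux genes (middle), and their ratio (right), per library with the group mean and SD in black. Sham replicate 2 and VSG replicate 6 stand apart for synthesis (435 and 434 FPKM) and for the ratio (3.06 and 2.77), and VSG replicate 4 is the highest for uptake and efflux (180 FPKM).

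Other genes of sterol handling were taken as 4 lists, to be read against the 14.7% of all genes tested that were called and the 39.7% whose groups did not overlap. Of 10 genes of SREBP cleavage and sterol-regulated degradation, 0 were called higher and 1 lower, Pgrmc1, a heme-binding membrane protein that binds INSIG and SCAP. It had 990, 1241 and 1076 CPM in sham and 522, 736 and 689 CPM in VSG livers, with no overlap (log2 fold change -0.76, SE 0.192, adjusted p = 0.0437). Of 6 genes of the isoprenoid branch, 1 was lower, Coq2, an enzyme of coenzyme Q synthesis (23.9, 29 and 29 CPM in sham and 19.3, 19 and 17.5 CPM after VSG, log2 change -0.55, adjusted p = 0.0269). Of 7 liver X receptor genes and targets, the family to which Abca1 belongs as a target, 0 were called higher and 1 lower. The lower gene was Lpcat3, a phospholipid remodelling enzyme, with 125, 142 and 125 CPM in sham and 58.5, 97.3 and 74.7 CPM after VSG (log2 change -0.77, adjusted p = 0.0416). The medians of these lists were -0.05, -0.09 and -0.07, beside 0.03 over all genes tested.

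Of 12 genes of lysosomal and membrane handling, 1 was called higher and 2 lower, with a median log2 fold change of -0.06. Lrp1, a large receptor that clears lipoprotein remnants, had 1230, 1122 and 1048 CPM in sham and 2018, 2301 and 2342 CPM after VSG (log2 change 0.97, SE 0.175, adjusted p = 0.0201). Lipa, the lysosomal lipase that frees cholesterol from its esters, had 496, 468 and 525 CPM in sham and 229, 260 and 246 CPM after VSG (log2 change -1.02, SE 0.125, adjusted p = 0.00836). Vldlr, the receptor for very low density lipoprotein, was low throughout, with 8.42, 23.2 and 18 CPM in sham and 3.08, 5.94 and 1.53 CPM after VSG (log2 change -2.23, SE 0.548, adjusted p = 0.0414). In all 3 genes the groups did not overlap. Each of the 6 called genes of these lists lost its call when some single libraries were left out: Lipa without sham replicate 3 (adjusted p = 0.0548) or VSG replicate 6 (0.0542), and Lrp1 when sham replicate 2 (0.0597), sham replicate 3 (0.113) or VSG replicate 6 (0.0843) was left out. Vldlr and Coq2 lost theirs without sham replicate 2 (0.106 and 0.0782), sham replicate 3 (0.136 and 0.12), VSG replicate 4 (0.0964 and 0.054) or VSG replicate 6 (0.109 and 0.0969), and Vldlr also with limma-voom (0.061). Pgrmc1 and Lpcat3 lost theirs without sham replicate 1 (0.0718 and 0.0795), sham replicate 2 (0.11 and 0.11), sham replicate 3 (0.143 and 0.13), VSG replicate 4 (0.0898 and 0.066) or VSG replicate 6 (0.124 and 0.135).

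Some of these genes share sequence with others, and how the counting treated such reads was not given in the sources used here. Only the longest transcript of each gene was searched. Of its 50-base windows, 45.9% in Acat2 were also found in Acat3 or Tcp1, 30.7% in Fdft1 mostly in Ctsb on the opposite strand, 30.5% in Idi1 and 11.7% in Fdps. An annotated gene on the same strand, Gm43738, covered 26.7% of the exon bases of Fdps, and Vps51 covered 12.1% of those of Tm7sf2. Transcripts on the opposite strand accounted for 13.6% of the windows of Hmgcs1 and 13.1% of those of Scap, and Abcg5 and Abcg8 overlap by 82 exon bases. The values of these genes are uncertain for that reason. The longest transcripts of Abca1 and Insig2 had no window in common with another gene.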

How the data were processed

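Liver poly(A) RNA of 6 mice was sequenced from strand-specific libraries. Per the labels, the submitters' processing notes name FastQC 0.10.1, STAR 2.6.0, featureCounts 2.0.3 and the mm10 build, and the authors deposited raw read counts per gene with the summed exon length of each gene. The annotation release and the treatment of strand and of reads shared between genes are not given in the sources used here. Groups came from the sample titles, and p-values set the difference between the groups against the spread between samples of the same group. Libraries of a group differed by more than counting noise (chi-square per degree of freedom of at least 27.5).

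Symbols came from GENCODE M21 (55144 of 55385 identifiers matched). Counts were fitted in edgeR 4.0.16 (R 4.3.3) with TMM factors, filterByExpr (minimum count 10, total 15) and a quasi-likelihood test with group as the only term, with Benjamini-Hochberg adjustment over 14454 genes. The SE is the log2 fold change divided by the square root of F. DESeq2 1.42.0 (the study's tool), limma-voom (limma 3.58.1), other scaling and filters, and leaving out each library were the alternatives. Library ranks with total counts were added after seeing the data. Sham replicate 2 and VSG replicate 6 were themselves picked out from the data. All 29 genes are named, and genes of the other lists only where called. Members and lists were chosen with earlier results of these data known. Motifs were searched on both strands of RefSeq windows of GRCm38.p6.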

Additional observations from a re-analysis of the deposited data

How the results depend on the processing

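Values below are the log2 fold change of VSG over sham or counts of the 29 genes at an adjusted p under 0.05. Against 2 genes in the fit as reported, 4 were called with DESeq2, 1 with limma-voom (Abca1) and 4 with total counts (Acat2, Insig2, Abca1 and Abcg5), and 0 to 2 with a library left out (0 without sham replicate 2 or 3, Acat2 alone without sham replicate 1, Soat2 alone without VSG replicate 6). All genes called then ranged from 159 without sham replicate 3 to 2732 without VSG replicate 5. Among the synthesis enzymes 0 became 1 with total counts (Acat2), and 0 to 1 with a library left out. Total counts moved the median of all genes from 0.03 to -0.11. They moved the median of the uptake and efflux genes from -0.12 to -0.25, and gave -0.08 for Dhcr7 and -0.06 for Insig1, whose sign turned, while limma-voom gave 0.01 for Pmvk. With a library left out, the median of the uptake and efflux genes ran from -0.21 to -0.00 and that of the SREBP control genes from -0.14 to 0.28 (0.01 as reported). The log2 ratio of synthesis to uptake and efflux was 0.44 without the gene of each class with the highest FPKM (Sc5d and Abca1), against -0.14. Abca1 held that place only through the VSG libraries. Genes whose sign turned with a library left out ranged as follows: Hmgcs1 from -0.55 to 1.25, Pmvk from -0.32 to 0.36, Fdps from -0.37 to 1.37, Fdft1 from -0.87 to 0.09, Tm7sf2 from -0.40 to 0.25, Msmo1 from -0.44 to 1.57, Nsdhl from -0.72 to 0.80, Hsd17b7 from -0.54 to 0.33, Ebp from -0.23 to 0.16, Dhcr7 from -0.38 to 0.43, Srebf2 from -0.03 to 0.43, Scap from -0.23 to 0.12, Insig1 from -0.19 to 0.59 and Abcg8 from -0.30 to 0.12. The causes were not tested. Depth limits Idi1 most, with 11 to 80 counts per library. No paired analysis was possible because the sham and VSG livers share no replicate numbers.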
